A study of Homo sapiens with 16 samples.

Results

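MYC encodes a basic helix-loop-helix transcription factor that drives cell growth and division, and it lies on 8q24, a region that is often gained in prostate cancer. Little other coding sequence surrounds it, and distant enhancers that act in particular tissues are known on both of its sides. ERG and GABPα are ETS transcription factors, which bind a short common core motif. ERG is placed under the androgen-responsive TMPRSS2 promoter by the gene fusion that VCaP cells carry, whereas GABPα is a widely expressed factor known for binding close to gene starts.

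The peaks described here are those of 10 chromatin immunoprecipitation sequencing (ChIP-seq) samples on chromosome 8 of the hg18 build, with a start from 128000000 to 129800000. MYC was placed at a start of 128817500, which is approximate, and it is transcribed towards larger coordinates, so upstream means smaller coordinates. The window of 1.80 Mb held 207 of the 155269 MACS peaks of the series, and 23 of its 39138 high confidence peaks. High confidence peaks are those that the authors found with both of their peak callers, MACS and SWEMBL. In the gene order of RefSeq, the nearest protein-coding genes are POU5F1B upstream and GSDMC downstream. No annotation of the build was used here, so exons and introns were not assigned.

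VCaP, a prostate cancer cell line, gave 1 sample for each factor at t0, with vehicle (ethanol) and with R1881, a synthetic androgen at 1 nM. Vehicle and R1881 followed 48 h in charcoal-stripped serum, and the labels give no further detail of t0. Jurkat, a T-cell leukaemia line, gave 2 replicates for each factor, and the labels do not say that these came from separate cultures. The samples labelled ERG carry an antibody number, SC-816X, which differs from the number that the study's methods list for ERG. The names ERG and GABPα below follow the labels. The vehicle and R1881 samples of a factor were called against the same input, as were the 2 Jurkat replicates of a factor, so overlaps between them share that control.

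The MACS score used below is −log10 of a peak's p-value multiplied by 10, and the lowest score in any file was 50. It is not a binding level, since it also depends on read depth, which the files do not give. With 1 sample for each VCaP condition and 2 for each Jurkat factor, no comparison has a test. Shares are given with 95% Wilson intervals and densities with 95% Poisson intervals, which cover counting error only.

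**Figure D1:**
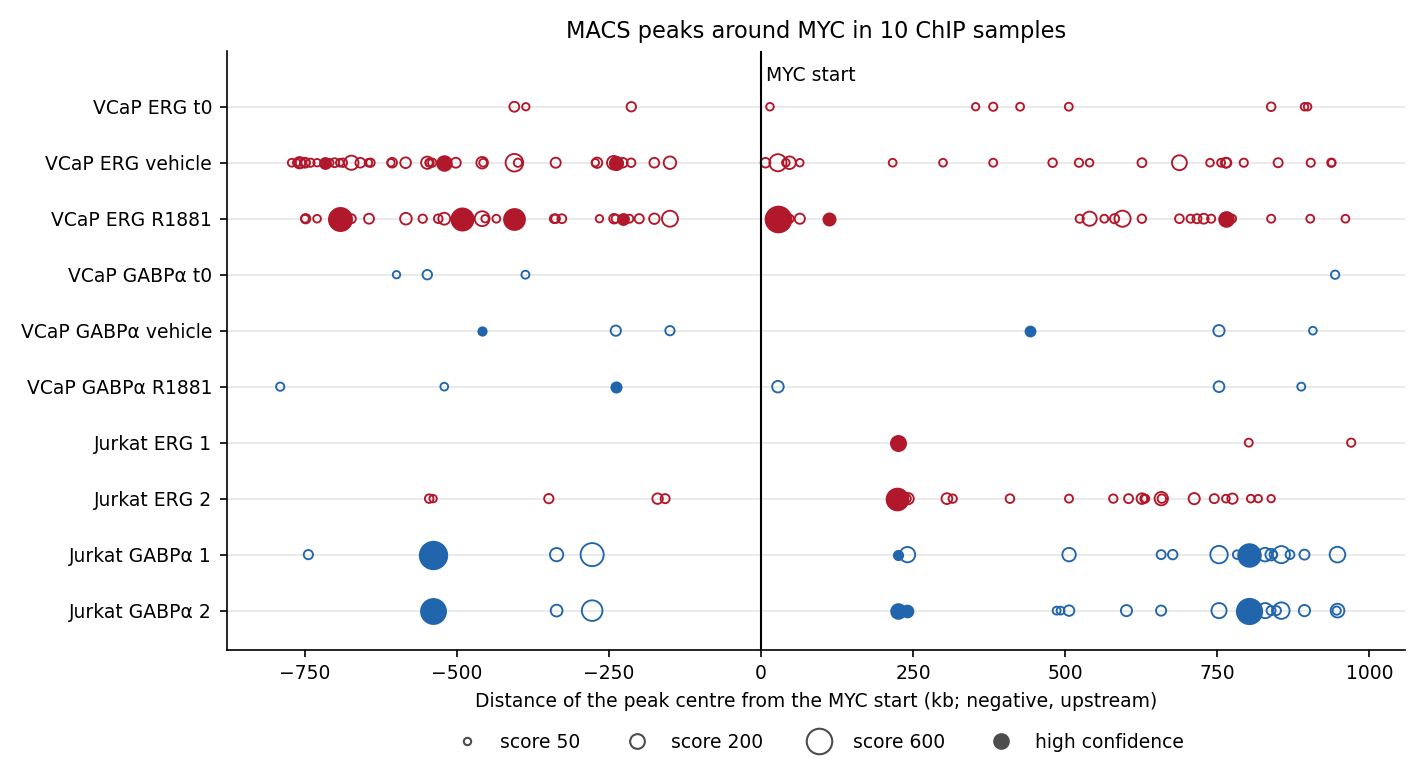
Each circle is a MACS peak in the MYC window, placed by the distance of its centre from the MYC start in kb (negative, upstream) in the row of its sample. The area of a circle is proportional to the MACS score, filled circles are high confidence peaks, and no sample has a circle from 149.3 kb upstream to 6.9 kb downstream of the start.

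None of the 10 samples had a MACS peak at the MYC start itself. The peak-free stretch ran from chr8:128668202-128824431, 156.2 kb from 149.3 kb upstream to 6.9 kb downstream of the start. Peaks of the 10 samples were merged into regions, and of the 8421 gaps between neighbouring regions on chromosome 8, 56 (0.665%) were at least as long. Over all main chromosomes the share was 2.40%, or 2236 of 93354. These are shares of the number of gaps. A fixed point such as the MYC start falls more readily in a long gap than in a short one. The share of the sequence that such gaps cover is therefore larger, and it was not measured. The median gap was 8.29 kb on chromosome 8 and 13.7 kb over all main chromosomes. The second longest gap of the window, 104.1 kb, lay downstream, from 111.9 to 216.0 kb. The gap around the start was longer in single samples, from 156.5 kb for VCaP ERG with vehicle to 1330 kb for VCaP GABPα at t0 and 2018 kb for Jurkat ERG replicate 1.

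The closest peak was downstream, in VCaP cells, and labelled ERG. With vehicle it lay at chr8:128824432-128825169, 6.9 kb from the start, with a score of 85.58 and without high confidence. At t0 the closest ERG peak was 14.5 kb downstream, with a score of 53.35. With R1881 it was 27.2 kb downstream, with a score of 611.58, above 98.0% of that sample's peaks. For GABPα in VCaP cells the closest peak was at the same site, 27.2 kb downstream, with R1881, 149.3 kb upstream with vehicle, and 387.0 kb upstream at t0. In Jurkat cells no peak came closer than 157.4 kb, which was an upstream peak of ERG replicate 2 with a score of 76.41. The closest peaks of the other Jurkat samples were 224.4 kb (ERG replicate 1) and 224.2 kb (both GABPα replicates) downstream, and all of these belonged to 1 region described below.

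The ERG samples of VCaP cells held most of the peaks of the window. There were 11 at t0, 61 with vehicle and 49 with R1881, against 4, 6 and 6 for GABPα. In Jurkat cells the ERG replicates had 3 and 26 peaks, and the GABPα replicates had 21 and 20. The Jurkat ERG replicates thus differed widely from each other, as they did over the genome, where they had 7288 and 15229 peaks, and statements on Jurkat ERG rest mostly on replicate 2.

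**Figure D2:**
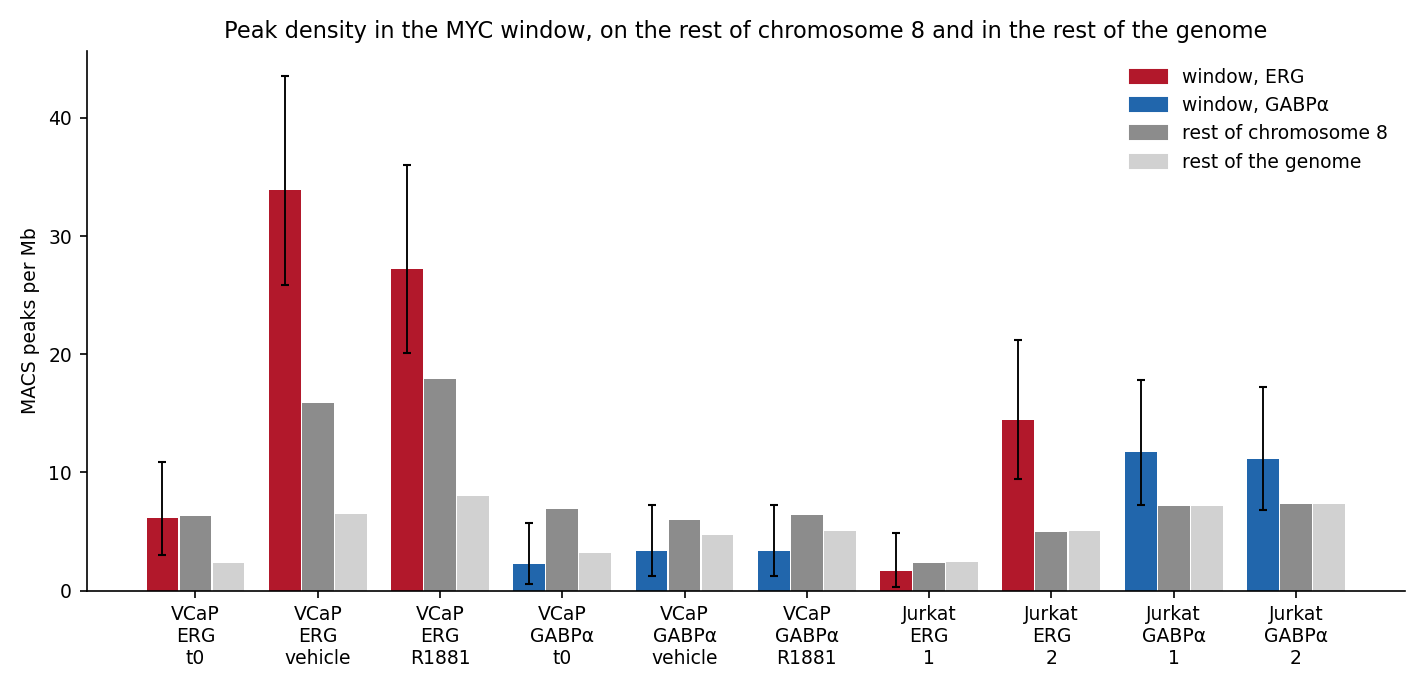
Bars show MACS peaks per Mb in each sample for the MYC window (red, ERG; blue, GABPα), the rest of chromosome 8 (dark grey) and the rest of the genome (light grey). Error bars are 95% Poisson intervals for the window; the window stands highest in VCaP ERG with vehicle, at 33.9 peaks per Mb.

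Set against the rest of chromosome 8, the window held more ERG peaks per Mb in VCaP cells with vehicle or R1881, and fewer GABPα peaks per Mb in each VCaP condition. ERG density was 33.9 peaks per Mb (25.9–43.5) with vehicle and 27.2 (20.1–36.0) with R1881, or 2.13 and 1.52 times that of the rest of the chromosome. At t0 it was 6.11 peaks per Mb (3.05–10.9), 0.971 times the rest. GABPα density in VCaP cells was 2.22, 3.33 and 3.33 peaks per Mb at t0, with vehicle and with R1881, which were 0.321, 0.554 and 0.523 times the rest. The density of the rest of the chromosome lay within the window's interval (1.22–7.26) for vehicle and R1881 and, at 6.93 peaks per Mb, above it (0.605–5.69) for t0. In Jurkat cells the ratio was 0.714 and 2.93 for ERG replicates 1 and 2, and 1.63 and 1.52 for the GABPα replicates. The interval for GABPα reached from 7.22 to 17.8 peaks per Mb in replicate 1 and from 6.79 to 17.2 in replicate 2, against 7.14 and 7.29 on the rest of the chromosome.

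Chromosome 8 as a whole was rich in VCaP peaks, which bears on any comparison with the genome. In VCaP cells it held 13.3% of the ERG peaks of the genome at t0, 12.1% with vehicle and 11.0% with R1881, and 10.6, 6.17 and 6.18% of those of GABPα in the same order, but 4.70–4.90% in the Jurkat samples. Against the rest of the genome, the window ratio was therefore higher, at 2.64, 5.23 and 3.41 for VCaP ERG and 0.699, 0.705 and 0.666 for VCaP GABPα. The rest of chromosome 8 had 2.72, 2.45 and 2.24 times the peak density of the rest of the genome for VCaP ERG. For VCaP GABPα it had 2.18, 1.27 and 1.27 times that density. Each window ratio to the genome is the product of this value and the window ratio to chromosome 8. What made the chromosome rich in VCaP peaks was not tested.

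More ERG peaks lay upstream of MYC in VCaP cells with vehicle or R1881, whereas more peaks of both factors lay downstream in Jurkat cells. The upstream part makes up 45.4% of the window. VCaP ERG had 63.9% of its peaks upstream with vehicle (39 of 61, 51.4–74.8%) and 57.1% with R1881 (28 of 49, 43.3–70.0%), but 27.3% at t0 (3 of 11, 9.75–56.6%). VCaP GABPα had 3 of 4 upstream at t0, and 3 of 6 with vehicle and with R1881. Jurkat ERG replicate 2 had 19.2% upstream (5 of 26, 8.51–37.9%), and replicate 1 had none of 3. The Jurkat GABPα replicates had 28.6% (6 of 21, 13.8–50.0%) and 20.0% (4 of 20, 8.07–41.6%). The share expected from length alone lay below the interval for VCaP ERG with vehicle, and above those for Jurkat ERG replicate 2 and GABPα replicate 2.

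Within these sides, the VCaP ERG peaks with vehicle were most numerous far upstream. Beyond 500 kb upstream there were 26 with vehicle, 11 with R1881 and none at t0. From 100 to 500 kb upstream the counts were 13, 17 and 3, and within 100 kb upstream no sample of either line had a peak. Downstream, from 100 to 500 kb, ERG had 4 peaks with vehicle and 1 with R1881, and beyond 500 kb 13 and 17. Jurkat GABPα had 13 and 12 peaks, and Jurkat ERG replicate 2 had 15, beyond 500 kb downstream.

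The median ERG scores in the window were equal to those of the genome or slightly below them. In VCaP cells the median was 57.5 at t0, 67.1 with vehicle and 72.7 with R1881, against 57.5, 68.8 and 77.5 over the genome. In the Jurkat ERG replicates it was 63.1 and 68.3, against 64.5 and 69.8. For VCaP GABPα the medians of 61.6, 85.4 and 79.5 were below the genome medians of 72.0, 140 and 127. The Jurkat GABPα medians, 123 and 122, were above those of the genome, 114 and 104. VCaP peaks of the window were longer than those of the genome for both factors. The median for ERG was 198 bp at t0, 618 bp with vehicle and 736 bp with R1881, against 163, 352 and 485 bp over the genome. For GABPα it was 1579, 974 and 869 bp, against 631, 751 and 732 bp.

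VCaP ERG peaks with vehicle and R1881 shared 25 sites. These were 51.0% of the 49 R1881 peaks (37.5–64.4%), against 32.3% of R1881 peaks over the genome, and 41.0% of the 61 vehicle peaks (29.5–53.5%), against 40.4%. At the 25 shared sites the R1881 score was the higher in 15, and over the genome in 59.9% of shared sites. By percentile within each sample it was the higher in 12. Among peaks with a score of at least 100, 12 of 15 with R1881 had a vehicle peak (80.0%, against 54.1% over the genome at that score), and 11 of 14 with vehicle had an R1881 peak (78.6%, against 79.7%). At t0, 3 of 11 ERG peaks were found with vehicle (27.3%, 9.75–56.6%, against 11.6% over the genome). With R1881, 2 of the 11 were found (18.2%, 5.14–47.7%, against 12.5%).

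**Figure D3:**
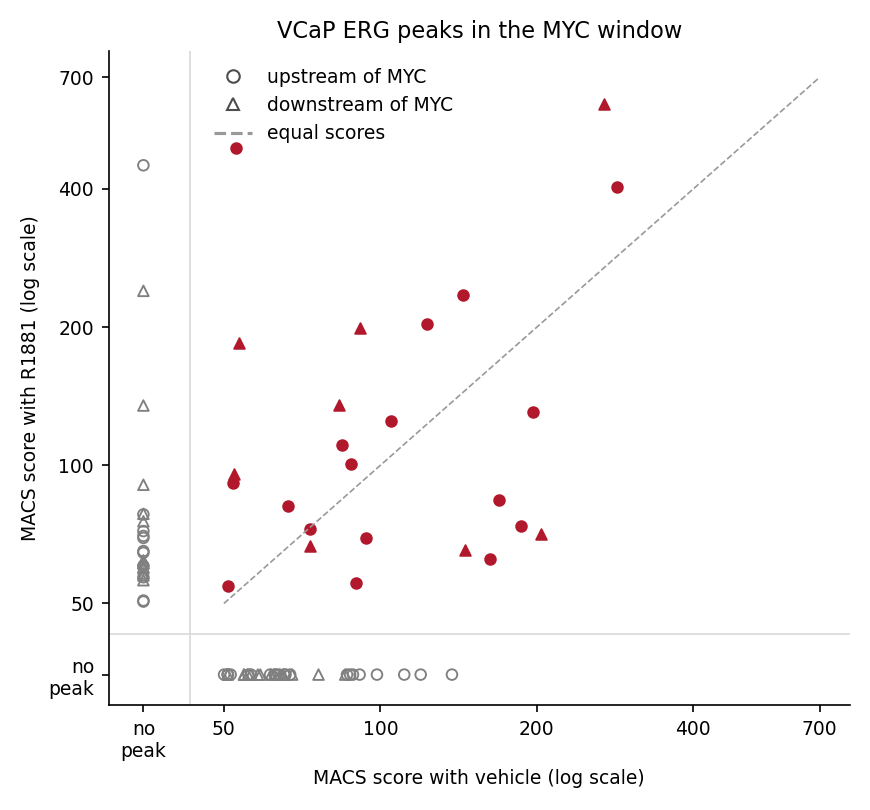
Each symbol is a site of a VCaP ERG peak in the MYC window, by its MACS score with vehicle and with R1881, both on log scales. Circles are upstream and triangles downstream of MYC, filled symbols are the 25 sites with a peak in both samples, open grey symbols on the margins are the 36 and 24 sites with a peak in 1 of them, and the dashed line marks equal scores.

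There were 3 high confidence ERG sites with vehicle and 7 with R1881, while the genome counts went from 743 to 2229 intervals. Counted as MACS peaks kept, the genome counts went from 743 to 2046. None in the window was a high confidence site in both. Over the genome, 59.8% of the vehicle regions and 21.3% of the R1881 regions were, against 0–56.1% and 0–35.4% as the intervals for 0 of 3 and 0 of 7. These were 3 of 61 MACS peaks with vehicle, where 3.81% were kept over the genome, and 7 of 49 with R1881, where 8.54% were. Of the 7 sites with R1881, 5 had a MACS peak with vehicle (35.9–91.8%, against 69.1% over the genome). Of the 3 with vehicle, 2 had one with R1881 (20.8–93.9%, against 91.5%). No high confidence peak of either factor was in the window at t0, where the genome held 2 for ERG and 2851 for GABPα.

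The highest ERG score of the window was that of the site 27.2 kb downstream, chr8:128844658-128845714, with 611.58 and high confidence with R1881. Its score with vehicle was 269.63, without high confidence, and there was no peak at t0. GABPα had a peak there with R1881, at 123.07, and not with vehicle or at t0. It was the one region of the window where both factors scored at least 100 in VCaP cells in the same treatment. No Jurkat sample had a peak there.

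Upstream, 3 sites had ERG scores over 400 with R1881. At chr8:128124146-128125527, 692.0 kb upstream, the score was 52.75 with vehicle and 490.99 with R1881. At chr8:128324556-128325594, 491.9 kb upstream, there was a peak of 450.37 with R1881 and none in any of the other 9 samples. At chr8:128411446-128412484, 405.0 kb upstream, ERG was found in all 3 VCaP samples, with 90.48 at t0, 285.71 with vehicle and 403.19 with R1881. All 3 were high confidence sites with R1881 alone, and the last held the highest score of the t0 and the vehicle sample.

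The other high confidence ERG sites with R1881 had lower scores. At chr8:128590006-128591008, 226.5 kb upstream, the scores were 84.29 with vehicle and 110.93 with R1881. The site at chr8:128928621-128929427, 111.1 kb downstream, had a peak with R1881 alone, at 134.96. At chr8:129581099-129581957, 763.6 kb downstream, the scores were 91.37 and 199.62, and Jurkat ERG replicate 2 had a peak of 55.38.

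The 3 high confidence ERG sites with vehicle were all upstream, and R1881 scored lower there or had no MACS peak. At chr8:128099353-128101032, 716.5 kb upstream, vehicle had 111.16 and R1881 no MACS peak, although SWEMBL gave an interval there with R1881. At chr8:128296249-128297178, 520.3 kb upstream, the ERG scores were 196.52 with vehicle and 130.48 with R1881, beside a GABPα peak of 55.89 with R1881. At chr8:128578143-128579224, 238.3 kb upstream, they were 162.41 and 62.39. The last site also held GABPα, at 97.23 with vehicle and 95.94 with R1881, the latter with high confidence.

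**Figure D4:**
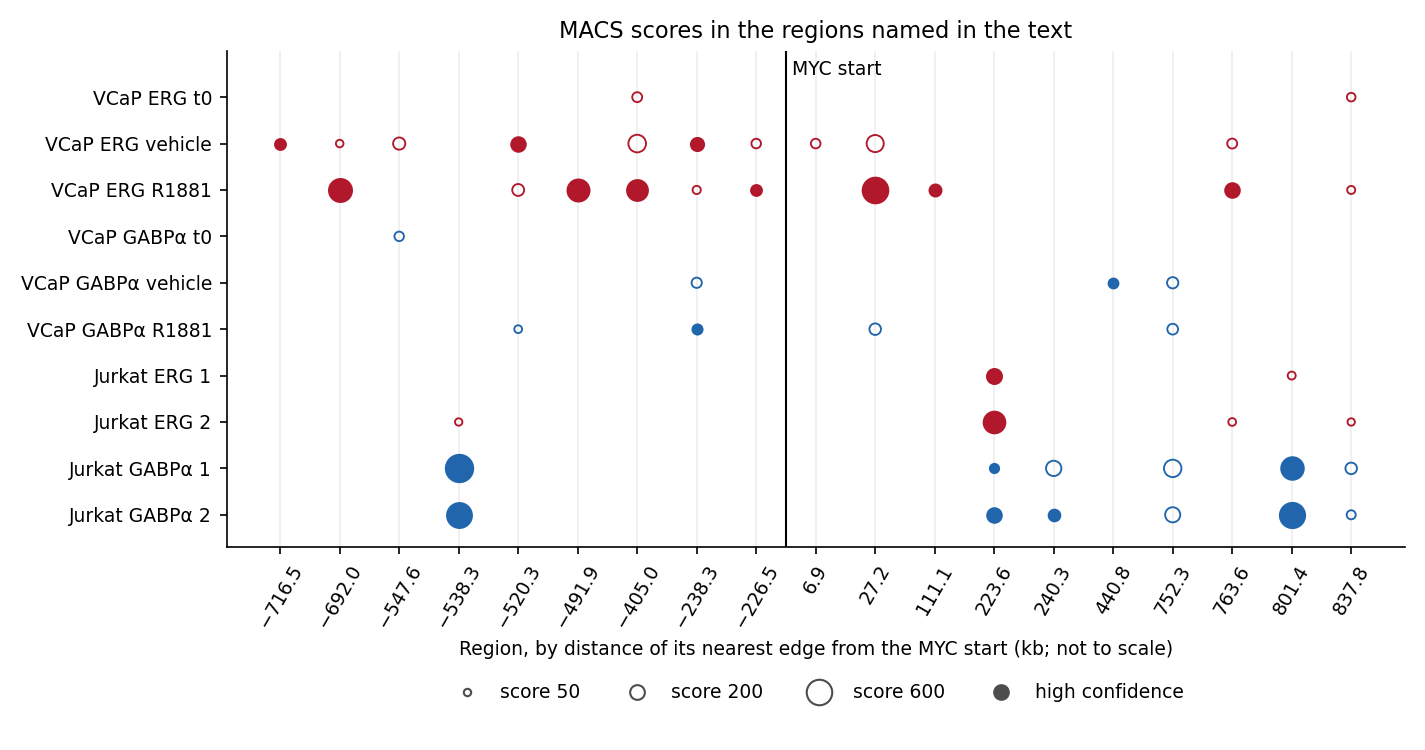
Columns are the 19 regions chosen by rule, in order along the chromosome and labelled by the distance of the nearest edge from the MYC start in kb, and rows are the 10 samples. The area of a circle is proportional to the MACS score and filled circles are high confidence peaks; the region 223.6 kb downstream is filled in all 4 Jurkat samples and empty in VCaP cells.

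GABPα had few sites near MYC in VCaP cells, and several were ERG sites. An ERG peak of the same treatment lay over 3 of the 6 GABPα peaks with vehicle (50.0%, 18.8–81.2%, against 17.8% over the genome). With R1881 an ERG peak also lay over 3 of 6 (50.0%, 18.8–81.2%, against 25.8%). At t0 none of 4 had one (0–49.0%, against 1.84%). Counted over ERG peaks, 3 of 49 with R1881 had a GABPα peak (6.12%, 2.10–16.5%), against 16.3% over the genome. Over the 3 VCaP conditions, 86 regions had ERG alone, 8 GABPα alone and 6 both (6 of 100, with an interval of 2.78–12.5%, against 10.1% over the genome). Besides those given above, the regions with both were chr8:128267620-128269943, 547.6 kb upstream, where the peaks came from different conditions (GABPα 83.24 at t0, ERG 137.31 with vehicle), and sites 458.0 and 149.3 kb upstream. These last ones, named here after their values were seen, had ERG scores of 123.04 and 144.23 with vehicle and 203.53 and 235.13 with R1881, and GABPα scores of 63.92 and 79.95 with vehicle.

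The VCaP GABPα samples with vehicle and R1881 had 2 sites in common. These were 33.3% of the 6 peaks in each (9.68–70.0%), against 66.0% of R1881 peaks and 69.9% of vehicle peaks over the genome, both within the interval. None of the 4 peaks at t0 was found with vehicle (0–49.0%, against 48.9%). The sites that vehicle and R1881 shared were at 238.3 kb upstream and 752.3 kb downstream. The high confidence peaks were 2 of 6 with vehicle (39.6% over the genome) and 1 of 6 with R1881 (34.8%). With vehicle they lay at 458.0 kb upstream, with 63.92, and at chr8:129258265-129259290, 440.8 kb downstream, with 90.94, and with R1881 at 238.3 kb upstream. At the site 458.0 kb upstream, SWEMBL also gave a GABPα interval with R1881, where MACS had no peak.

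In Jurkat cells, the region at chr8:129041055-129042473, 223.6 kb downstream of MYC, had a high confidence peak in all 4 samples. The scores were 210.37 and 436.47 for the ERG replicates and 79.46 and 199.31 for the GABPα replicates. It was the sole high confidence ERG site of the window in Jurkat cells and held the highest ERG score in each replicate, above 91.9 and 97.6% of the peaks of those samples. None of the 6 VCaP samples had a peak there.

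The highest GABPα score of each Jurkat replicate was farther away, and ERG was weak or absent there. At chr8:128277574-128279235, 538.3 kb upstream, GABPα scored 694.94 and 575.76, both with high confidence, and ERG replicate 2 had a peak of 50.47. At chr8:129618906-129620367, 801.4 kb downstream, GABPα scored 471.36 and 590.83, again both with high confidence, and ERG replicate 1 had a peak of 58.81. At chr8:129057843-129058578, 240.3 kb downstream, GABPα scored 216.94 and 127.77, the latter with high confidence. No ERG peak overlapped that region, but ERG replicate 2 had peaks on both sides of it. These lay 239.3 kb (58.88) and 241.5 kb (116.07) downstream of MYC, and were named after their values were seen. The score did not decide which peaks were kept, since a GABPα region 277.4 kb upstream, named after its values were seen, scored 491.63 and 390.43 without high confidence in either replicate. In the Jurkat GABPα replicates, 12 and 6 peaks of the window without high confidence scored above the lowest one that was kept.

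Most GABPα peaks of a Jurkat replicate were found in the other one, and few ERG peaks were. Of the GABPα peaks, 15 of 21 in replicate 1 (71.4%) and 15 of 20 in replicate 2 (75.0%) recurred, against 72.7 and 71.0% over the genome. For ERG, the region 223.6 kb downstream was the single site in both replicates. It was 1 of 3 peaks in replicate 1 (33.3%, 6.15–79.2%), against 49.4% over the genome. In replicate 2 it was 1 of 26 peaks (3.85%, 0.682–18.9%), against 21.2%. The high confidence share was 1 of 3 and 1 of 26 for ERG (15.1 and 10.2% over the genome), and 3 of 21 and 4 of 20 for GABPα (32.8 and 38.3%).

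Of 28 merged Jurkat ERG peaks, 6 had a GABPα peak (21.4%, 10.2–39.5%, against 29.2% over the genome). Of 26 merged GABPα peaks, 6 had an ERG peak (23.1%, 11.0–42.1%, against 19.5%). With replicate 1 alone the ERG share was 66.7%, on 3 peaks. In the 6 shared regions GABPα had peaks in both replicates, and ERG in both in 1 of them.

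Of the 141 merged regions, 93 were found in VCaP cells alone, 41 in Jurkat cells alone and 7 in both. The share in both was 4.96% (2.43–9.89%), and the genome share of 7.05% lay within that interval. None of the 16 high confidence regions was one in both lines (0–19.4%), against 20.4% over the genome. The mix of factors differed between these sets. ERG with R1881 gave 7 of the 23 high confidence intervals of the window, and 2229 of 39138 over the genome. The part of this mix in the difference was not tested. Of 49 VCaP ERG peaks with R1881, 3 had a Jurkat ERG peak (6.12%, 2.10–16.5%, against 3.86% over the genome), all of them from replicate 2. Of 6 VCaP GABPα peaks with R1881, 1 had a Jurkat GABPα peak (16.7%, 3.01–56.4%, against 28.9%). That peak was at chr8:129569771-129570649, 752.3 kb downstream, where GABPα was found with vehicle (117.15), with R1881 (106.58) and in both Jurkat replicates (280.06 and 210.61), without high confidence in any. The most widely found region, in 5 of 10 samples, was chr8:129655342-129656952, 837.8 kb downstream. It held ERG at t0 (68.49) and with R1881 (59.68) in VCaP cells, and ERG replicate 2 (50.25) and both GABPα replicates (123.1 and 75.57) in Jurkat cells. Of all 141 regions, 97 (68.8%) were found in 1 sample, against 62.9% over the genome.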

How the data were processed

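ERG and GABPα ChIP-seq peaks were analysed in 6 VCaP and 4 Jurkat samples, and the 6 input samples were not analysed here. The authors aligned reads to hg18 with BWA 0.5.5 and called peaks per sample against input with MACS and SWEMBL, without pooling replicates. The deposited MACS files give a score, −log10 of the p-value multiplied by 10. High confidence files of 7 samples carry the parent score, and those of 3 do not. In the window, the 23 high confidence intervals were the SWEMBL intervals or MACS peaks where the 2 callers overlapped. Read depth is not given in the files, so its effect on peak numbers is unknown.

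Starts were made 1-based. Peaks were compared by an overlap of at least 1 bp with scripts (Python 3.11.15, scipy 1.17.1 for the intervals). Of overlaps set in simulated peaks, 1000 of 1000 were recovered among 2000 peaks. Density used the span from the first to the last peak of each main chromosome. Regions named were those with an edge within 10 kb of the MYC start, the 15 highest-scoring high confidence regions, the highest peak of each sample, regions found in at least 5 samples, and regions with both factors at a score of at least 100 in a cell line. The members and the rule were chosen with earlier results of these data known. Alternatives were a minimum score of 100, the high confidence or SWEMBL peaks, a 500 kb limit, a 50% overlap of the shorter peak, the rest of the genome, vehicle in place of R1881, leaving out a Jurkat replicate, and pairing by replicate number. Counting over GABPα peaks and the upstream share at a score of at least 100 were added after seeing the data.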

Additional observations from a re-analysis of the deposited data

Results flagged for a closer look

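From vehicle to R1881, the number of high confidence peaks in the MYC window rose from 3 to 7 for ERG and went from 2 to 1 for GABPα in VCaP cells, so the counts moved in opposite directions. The counts over the whole genome moved the same ways, from 743 to 2229 intervals for ERG and from 6365 to 5987 for GABPα. Counted as MACS peaks kept, they went from 743 to 2046 for ERG and from 5623 to 5223 for GABPα. By SWEMBL alone, the intervals in the window went from 3 to 10 for ERG and stayed at 2 for GABPα. Each count is 1 sample, and the difference was not tested.

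Among the SWEMBL intervals, which were counted by themselves as an alternative and not otherwise compared, 4 of the 27 in the window had no MACS peak of the same sample. For ERG with R1881, 3 of these lay at 717.2, 634.2 and 228.4 kb upstream of MYC. The fourth, for GABPα with R1881, lay 458.3 kb upstream, within a site where GABPα had high confidence with vehicle.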

How the results depend on the processing

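Of 120 alternative values, 54 stayed near the value reported and 66 did not. No value had a test, and read depth was not given in the files.

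In the order VCaP ERG t0, vehicle, R1881, VCaP GABPα t0, vehicle, R1881, Jurkat ERG 1, 2, Jurkat GABPα 1, 2, the peaks in the window were 0, 3, 7, 0, 2, 1, 1, 1, 4 and 4 among high confidence peaks, 0, 3, 10, 0, 2, 2, 1, 1, 4 and 4 by SWEMBL, and 0, 14, 15, 0, 1, 2, 1, 7, 12 and 13 at a score of at least 100. Within 500 kb of MYC they were 7, 22, 21, 1 (GABPα t0), 2 (GABPα with R1881), 1, 9, 4 and 6, leaving out GABPα with vehicle.

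The density ratio to the rest of the genome was 2.64, 5.23 and 3.41 for VCaP ERG at t0, with vehicle and with R1881. At a score of at least 100 it was 0, 2.96 and 2.08 against the rest of chromosome 8, and 0 for VCaP GABPα at t0. Among high confidence peaks it was 3.76 and 3.05 for VCaP ERG with vehicle and R1881, 0 for GABPα at t0, 1.04 for Jurkat ERG 2, and 0.987 and 0.782 for the Jurkat GABPα replicates, so the higher density of Jurkat GABPα did not hold among these.

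At a score of at least 100 the closest peak was at 27.3 kb for VCaP ERG with vehicle, 752.3 kb for VCaP GABPα with vehicle, -169.8 kb for Jurkat ERG 2 and 240.3 kb for Jurkat GABPα 1. At that score in the treatment counted, 80.0% of ERG peaks with R1881 were found with vehicle and 78.6% the reverse, and 100% of GABPα peaks with vehicle were found with R1881, on 1 peak. The upstream share of VCaP ERG with vehicle was 78.6%.

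The share of ERG peaks with a GABPα peak among high confidence peaks was 0 in VCaP cells with R1881 and 100% in Jurkat cells, on 1 region, and counted over GABPα peaks it was 50.0% in VCaP cells. Leaving out a Jurkat replicate gave 19.2 to 66.7% for the Jurkat share and 0 to 6.12% for VCaP ERG peaks found in Jurkat cells, with 0 without replicate 2. The replicate block, as the mean of same-numbered pairs, gave 42.9%. Same-numbered and different-numbered pairs gave the same shares. They could not differ, since both GABPα replicates had a peak at every shared region of the window. The score differences between replicates of ERG and GABPα had a correlation of 0.03 over 1581 regions. Neither value can show whether the samples were paired by number. The cause of each shift was not tested.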
